A study of Mus musculus with 4 samples.

Results

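Insulin-degrading enzyme and the insulin-like growth factor (IGF) system were described across 4 RNA sequencing libraries of mouse brain septal tissue. The 10 genes were chosen by name, as rows of the deposited tables with the symbol Ide, Insr, Igf1, Igf1r, Igf2, Igf2r, Igfbp2, Igfbp4, Igfbp5 or Igfbp7. The set was put together because Ide was lower and Igfbp2 higher in TCRb-/- mice in both experiments. The genotype values of the 10 genes are therefore given as a description, with no test. All 10 were found, each on 1 row, among 15409 gene rows, and all 10 passed the filter on low values described below.

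The study compared TCRb-/- mice with WT mice. TCRb is a chain of the T cell antigen receptor, without which alpha-beta T cells do not form. All mice, WT included, were restrained for 30 min a day on 3 days, and tissue was taken 1.5 h after the final restraint, so no group here was unstressed. Septal tissue of 4 to 5 mice went into each library, so a replicate is a pool of animals, and each genotype had 1 library in experiment 1 and 1 in experiment 2. The RNA came from tissue lysate cleared by centrifugation. The labels used here name no strain, sex or age. In tissue libraries, fewer cells of a type and less RNA per cell cannot be told apart.

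Library totals ran from 19988137 to 26210790 reads, so that 1 read was worth between 0.0382 and 0.05 CPM, reads scaled to a library total of 1000000. Trbc2, a constant segment of the deleted receptor chain, had 6.45 and 3.85 CPM in the WT libraries of experiments 1 and 2. It had 0 reads in TCRb-/-, for which the upper limit is 0.122 and 0.150 CPM. Of 11 septum markers 10 were listed, Zic1, Zic4, Crhr2, Nts, Sst and Chat among them, and Drd3 was not among the listed rows. The septum list summed to 800 and 582 CPM in TCRb-/- and 734 and 685 CPM in WT. Meis2, its most abundant gene, had 361 and 141 CPM in TCRb-/- and 329 and 219 CPM in WT, and without it the sums were 439 and 441 CPM against 405 and 466 CPM. Tests were run over the 13912 genes whose mean was 1 CPM or more. Libraries also differed in markers of neighbouring tissue, whose values stand beside the genes they moved with. For 1 gene alone, the smallest p of an exact permutation test of 2 against 2 libraries is 0.333.

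Insulin and the 2 IGFs are related peptide hormones that signal through the receptor tyrosine kinases INSR and IGF1R to the PI3K, AKT and mTOR pathway and to the FoxO transcription factors. In extracellular fluid most IGF is held by IGF-binding proteins, which limit or deliver it to receptors, and IGF2R takes IGF2 up for breakdown in lysosomes. Insulin-degrading enzyme, a zinc protease, cuts insulin and other short peptides, amyloid-beta among them. In the brain, IGF2 and IGFBP2 are known as products of the choroid plexus and meninges, from which they reach the cerebrospinal fluid.

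The 10 genes lie on 8 chromosomes in GRCm38, the assembly that mm10 also names. In the GENCODE M21 annotation, Ide is on chromosome 19 from 37268743 to 37337852 on the minus strand. Igfbp2 is on chromosome 1 from 72824503 to 72852474 on the plus strand, and Igfbp5 follows on the minus strand from 72857932 to 72874884, tail to tail with a gap of 5457 bases. Igf2 is on chromosome 7 from 142650766 to 142666816, and 3596 bases of its exons are shared with Gm49394, a gene model on the same strand that was not among the listed rows. It also shares 98 exon bases with the antisense gene Igf2os, not listed either. How reads in shared exons were counted is not given in the sources used here, so the Igf2 level is uncertain to that extent. Igf1r is on chromosome 7 as well (67952827 to 68233668), Igf1 on chromosome 10 (87858265 to 87937042), Insr on chromosome 8 (3122061 to 3279617) and Igf2r on chromosome 17 (12682406 to 12769664). Igfbp4 is on chromosome 11 (99041244 to 99054392) and Igfbp7 on chromosome 5 (77349240 to 77408041). Igfbp7 shares 85 exon bases with Polr2b on the opposite strand, and Airn, the antisense RNA of the imprinted Igf2r locus, overlaps Igf2r without sharing exon bases, and had 0.488 and 0.901 CPM in TCRb-/- and 0.992 and 1.16 CPM in WT.

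RefSeq start-site windows, from 250 bases before to 50 after an annotated start (GRCm38.p6), were found for 9 of the 10 genes, 13 windows in all. Windows are shown for the 3 genes on which the values below turn, Ide for the genotype difference and Igfbp2 and Igf2 for the difference between experiments. Capitals mark GC boxes, the letters GGGCGG on either strand, which the transcription factor SP1 is known to bind.
Ide, chr19:37334495-37334794, minus strand: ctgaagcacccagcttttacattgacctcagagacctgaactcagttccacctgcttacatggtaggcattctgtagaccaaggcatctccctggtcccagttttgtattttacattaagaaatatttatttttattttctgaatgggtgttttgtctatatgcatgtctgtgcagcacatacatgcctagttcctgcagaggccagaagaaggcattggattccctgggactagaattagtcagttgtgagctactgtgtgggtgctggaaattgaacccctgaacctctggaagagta
Igfbp2, chr1:72824230-72824529, plus strand: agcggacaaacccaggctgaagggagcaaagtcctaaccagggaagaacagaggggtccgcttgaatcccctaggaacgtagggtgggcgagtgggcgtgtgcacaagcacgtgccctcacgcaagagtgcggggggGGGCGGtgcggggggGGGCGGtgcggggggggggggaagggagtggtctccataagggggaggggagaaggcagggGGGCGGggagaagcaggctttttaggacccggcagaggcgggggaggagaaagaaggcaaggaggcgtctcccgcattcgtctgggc
Igf2, chr7:142657447-142657746, minus strand: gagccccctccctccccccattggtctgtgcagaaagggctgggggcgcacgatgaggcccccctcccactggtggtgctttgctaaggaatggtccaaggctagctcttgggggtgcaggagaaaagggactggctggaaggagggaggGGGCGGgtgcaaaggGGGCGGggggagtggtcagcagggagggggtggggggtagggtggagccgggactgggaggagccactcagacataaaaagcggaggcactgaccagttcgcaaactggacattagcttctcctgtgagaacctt

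The Igfbp2 window, 67.0% G and C, held 3 GC boxes, and the Igf2 window, 63.3% G and C, held 2. For both genes the window shown is the one with the most GC boxes. The second Igfbp2 window (57.3% G and C) held 0, and the other 3 Igf2 windows, all upstream of the one shown, held 0, 0 and 1. The Ide window held none at 44.0% G and C, against a median of 52.7% over all windows. This RefSeq start lies inside the longer GENCODE gene, so the window may not be the start used in these cells. Of the 13 windows 6 held a GC box, as did 35.7% of all 32851 windows. The other motifs searched on both strands were TATAAA (1 of the 13 windows, that of Igfbp4, against 13.6% of all), CACGTG (2 against 7.15%) and GTAAACA, a FoxO site (0 against 3.65%). These letters are a description and no evidence of binding.

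Per length and by the mean over libraries, the binding proteins had the highest levels of the 10 genes and Igf1 the lowest. Levels were compared as RPKM, CPM per kilobase of all annotated exons, over the 4 libraries (mean ± SD, n = 4). Igfbp2 had 39.1 ± 21.9 RPKM, Igfbp4 11.0 ± 5.23, Igfbp7 6.99 ± 2.27 and Igfbp5 6.79 ± 0.909. Igf2 followed with 3.90 ± 1.92 RPKM and Ide with 3.55 ± 0.828. The receptors were lower, Igf2r at 0.817 ± 0.157 RPKM, Igf1r at 0.677 ± 0.142 and Insr at 0.568 ± 0.0876, and Igf1 had 0.291 ± 0.0679. Of neighbours in this order, the ranges over libraries did not overlap between Igfbp2 and Igfbp4, between Ide and Igf2r, and between Insr and Igf1. The other neighbours overlapped in range, so Igfbp7 and Igfbp5, for example, have no fixed order, Igfbp7 being the higher in 2 of 4 libraries. Igf2 (6.33 RPKM) also lay above the binding protein Igfbp4 (4.67 RPKM) in TCRb-/- of experiment 2. The exon length counts every isoform, so it understates genes whose transcripts are shorter than their annotated exons.

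**Figure D1:**
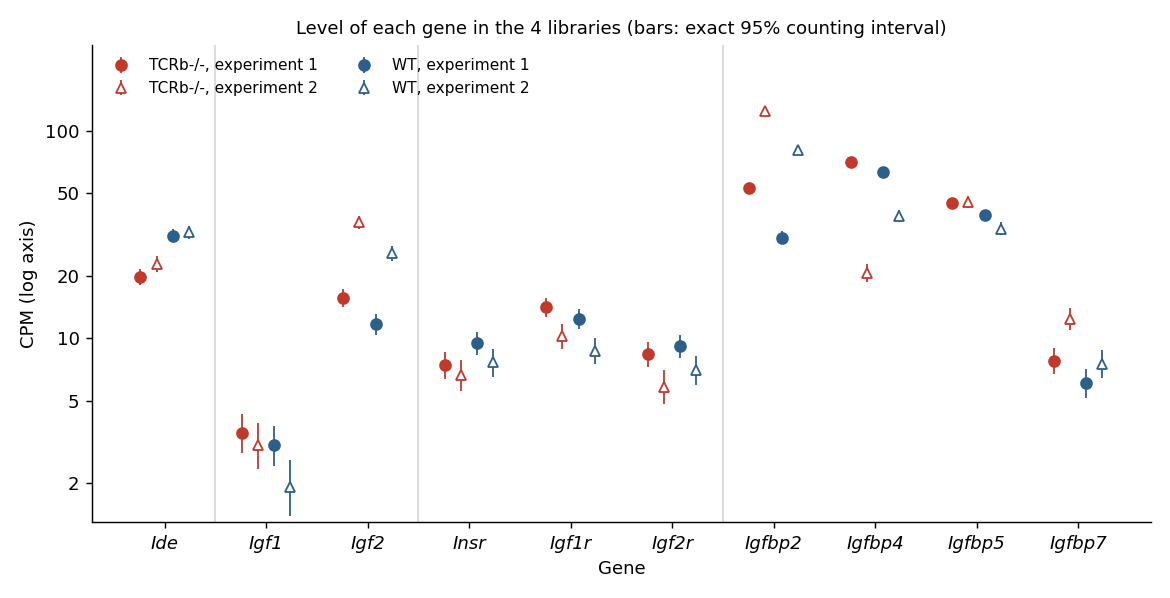
Level of each gene in each of the 4 libraries, in CPM on a log axis, with red for TCRb-/- and blue for WT, filled circles for experiment 1 and open triangles for experiment 2. Bars are exact 95% counting intervals. Ide lay between 19.8 and 22.9 CPM in TCRb-/- and between 31.3 and 32.5 CPM in WT, while Igfbp2, Igf2 and Igfbp4 differed more between experiments than between genotypes.

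Ide, the protease of the set, had 19.8 and 22.9 CPM in the TCRb-/- libraries of experiments 1 and 2, and 31.3 and 32.5 CPM in the WT libraries. Both TCRb-/- libraries lay below both WT libraries, and experiments 1 and 2 differed little within each genotype. The exact 95% counting intervals, 18.1 to 21.7 and 20.8 to 25.1 CPM in TCRb-/- against 29.2 to 33.5 and 30.2 to 34.9 CPM in WT, did not touch across genotypes. These intervals rest on 488, 457, 820 and 726 reads in that order and cover counting error only. The TCRb-/- to WT ratio was 0.634 (0.566 to 0.711) in experiment 1 and 0.704 (0.625 to 0.793) in experiment 2, each with a counting interval that compares a pair of libraries and not the genotypes. On the log2(CPM + 1) scale, which understates the change of low genes, the difference was -0.63 and -0.49 in the experiments and -0.56 over both. That difference was the 45th lowest of 13912 genes. Since a low Ide in both experiments was a reason to choose the set, this rank supports nothing further.

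The genes most like Ide were taken as those with the smallest Euclidean distance over the 4 libraries, on log2(CPM + 1) centred on each gene's mean, among 9820 other genes averaging 10 CPM or more. They were Arf5 (distance 0.11), Esrrg (0.20), Gnrh1 (0.22), Ggps1 (0.26) and Pcdh11x (0.26). Arf5, which encodes a small GTPase of vesicle traffic, had 214 and 228 CPM in TCRb-/- against 305 and 342 CPM in WT. Gnrh1, the precursor of gonadotropin-releasing hormone, had 9.19 and 12.3 CPM against 13.4 and 15.2 CPM. With 4 libraries such a likeness reflects few values.

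The ligands differed in level and in pattern. Igf2 had 15.7 and 36.2 CPM in TCRb-/- and 11.7 and 25.6 CPM in WT (experiments 1 and 2). Within each experiment the TCRb-/- library was the higher, but the experiments stood further apart, and the genotypes overlapped. Igf1 had 3.50 and 3.05 CPM in TCRb-/- and 3.05 and 1.92 CPM in WT, from 86, 61, 80 and 43 reads. The counting interval of the lowest library (1.39 to 2.59 CPM) lay below that of the highest (2.80 to 4.32 CPM) and overlapped those of the other 2. The TCRb-/- to WT ratio of Igf2 was 1.34 (counting interval 1.15 to 1.57) in experiment 1 and 1.41 (1.26 to 1.58) in experiment 2, and that of Igf1 was 1.15 (0.835 to 1.57) and 1.59 (1.06 to 2.40). Per length, Igf2 was 7.77 and 20.5 times Igf1 in TCRb-/- and 6.62 and 23.1 times Igf1 in WT, the higher ratio falling in experiment 2 in both genotypes. Ins2, an insulin gene and neighbour of Igf2, had between 0.203 and 1.25 CPM, and Ins1 was not among the listed rows.

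The receptors lay within a narrow range. Insr, the insulin receptor, had 7.44 and 6.65 CPM in TCRb-/- and 9.50 and 7.65 CPM in WT. Both TCRb-/- libraries lay below both WT libraries, but TCRb-/- in experiment 1 (counting interval 6.40 to 8.60 CPM) and WT in experiment 2 (6.54 to 8.88 CPM) could not be told apart at this depth. Igf1r, the main IGF receptor, had 14.2 and 10.2 CPM in TCRb-/- and 12.4 and 8.72 CPM in WT, so genotypes overlapped and experiment 1 was the higher. Igf2r had 8.38 and 5.85 CPM in TCRb-/- and 9.16 and 7.02 CPM in WT, with the same order of experiments. The log2 differences between genotypes were -0.25 for Insr, 0.19 for Igf1r and -0.17 for Igf2r. The TCRb-/- to WT ratio of Igf1r was 1.15 and 1.17 in the experiments and that of Igf2r 0.915 and 0.834, each with a counting interval that included equal levels. For Insr it was 0.784 (0.644 to 0.952) and 0.870 (0.688 to 1.10). Per length, Igf1r was 1.56 and 1.26 times Insr in TCRb-/- and 1.07 and 0.934 times Insr in WT.

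Igfbp2, which binds both IGFs with a preference for IGF2, had 53.0 and 125 CPM in TCRb-/- and 30.6 and 80.7 CPM in WT. The TCRb-/- library was the higher in each experiment, yet WT in experiment 2 lay above TCRb-/- in experiment 1, so the genotypes overlapped. The TCRb-/- to WT ratio was 1.73 (counting interval 1.59 to 1.90) in experiment 1 and 1.54 (1.45 to 1.64) in experiment 2. The log2 difference was 0.77 and 0.62 in the experiments and 0.70 over both, the 20th highest of 13912 genes. As with Ide, this pattern chose the set. Igfbp2 took 48.9% and 75.0% of the RPKM of the 4 binding proteins in TCRb-/- and 39.0% and 67.9% in WT. Its ratio to Igf2 varied less than either gene, Igfbp2 per length being 10.5 and 10.7 times Igf2 in TCRb-/- and 8.11 and 9.76 times in WT.

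Igfbp4, a binding protein that restrains IGF action until the protease PAPP-A cuts it, had 71.1 and 20.6 CPM in TCRb-/- and 63.2 and 38.7 CPM in WT. It was the only one of the 10 whose genotype difference had opposite signs, 0.17 in experiment 1 and -0.88 in experiment 2. The library lowest in Igfbp4 was TCRb-/- in experiment 2. Igfbp5 had 44.8 and 45.4 CPM in TCRb-/- and 39.1 and 33.8 CPM in WT, so that TCRb-/- lay above WT without overlap. The log2 difference of Igfbp5 was 0.30, at 0.19 and 0.42 in the experiments. Its TCRb-/- to WT ratio was 1.15 (counting interval 1.05 to 1.25) and 1.34 (1.22 to 1.48). The ratio of Igfbp4 was 1.12 (1.05 to 1.20) in experiment 1 and 0.532 (0.472 to 0.599) in experiment 2. Per length, Igfbp2 was 1.78 and 14.4 times Igfbp4 in TCRb-/- and 1.16 and 4.98 times in WT.

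Igfbp7, a secreted relative with low affinity for IGFs that is known from blood vessels, had 7.77 and 12.4 CPM in TCRb-/- and 6.07 and 7.56 CPM in WT. The genotypes did not overlap, although TCRb-/- in experiment 1 and WT in experiment 2 were within each other's counting intervals (6.71 to 8.95 and 6.46 to 8.79 CPM). Its log2 difference was 0.48, at 0.31 and 0.65 in the experiments. Endothelial markers, of which 9 of 10 were listed and none was at 0 in any library, summed to 57.3 and 55.0 CPM in TCRb-/- and 52.8 and 53.0 CPM in WT. Pericyte markers (7 of 8 listed, none at 0) summed to 39.2 and 26.6 CPM in TCRb-/- and 38.9 and 25.9 CPM in WT. The part of vascular cells in the Igfbp7 values was not tested.

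In each experiment the TCRb-/- library was the higher for 6 of the 10 (Igfbp2, Igfbp7, Igf2, Igf1, Igfbp5 and Igf1r) and the lower for 3 (Ide, Insr and Igf2r) while Igfbp4 was neither. Of all 13912 genes, 27% were higher in both, 24.5% lower in both and 48.4% of opposite sign. Igfbp5 and Igfbp7 lay higher and Ide and Insr lower in TCRb-/- without overlap of the libraries, against 9.76% and 8.04% of all genes, 17.8% in either direction. The median log2 difference of the 10 genes was 0.25, and that of all genes 0.00069. Since this contrast entered the choice of the genes, nothing is read from these counts. Across all genes, limma called 0 genes by genotype (0%), with 43 at an unadjusted p under 0.05. With the experiment as a block it called 2 (0.0144%, and 784 or 5.64% at an unadjusted p under 0.05). They were Trbc2, the deleted gene, at a log2 difference of -2.59 (a fitted value that depends on the pseudocount, since TCRb-/- had 0 reads), and Ttr, the transthyretin of the choroid plexus, at 0.85, each with an adjusted p of 0.0323. Without TCRb-/- replicate 1 the count without the block was 47, and without TCRb-/- replicate 2 it was 1.

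**Figure D2:**
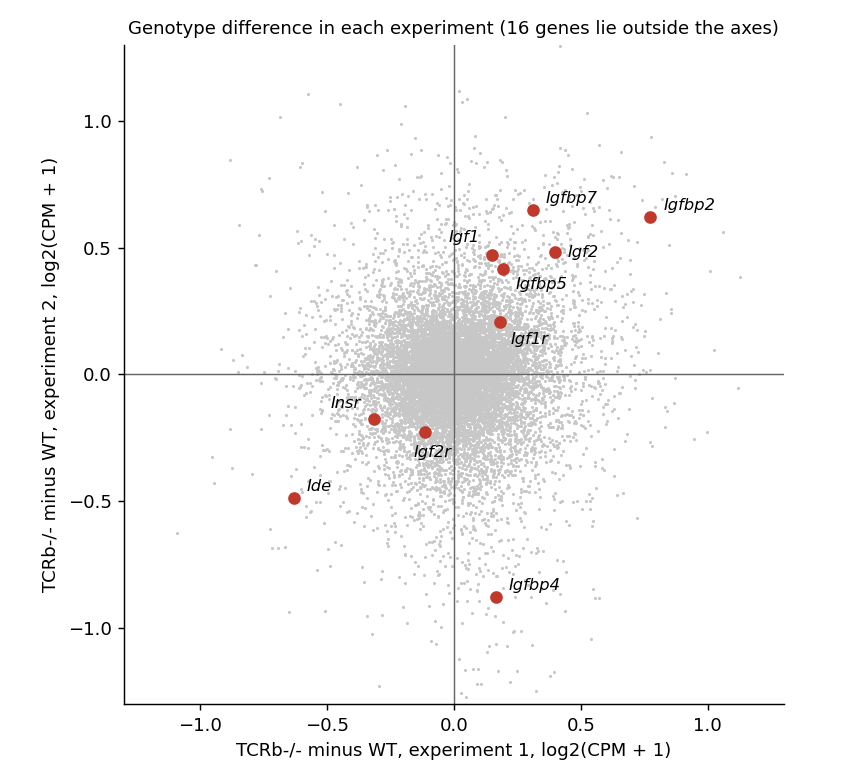
Difference between TCRb-/- and WT on the log2(CPM + 1) scale in experiment 1 (horizontal axis) and experiment 2 (vertical axis), with the 10 genes in red and all 13912 tested genes in grey. Igfbp2 lies at 0.77 and 0.62, Ide at -0.63 and -0.49, and Igfbp4 in the lower right quadrant at 0.17 and -0.88. The axes leave out 16 genes.

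The difference between experiments was not used to choose the genes and was tested in limma over all 13912 genes, with Benjamini-Hochberg adjustment. Experiment is the batch named in the labels, which do not say in what the experiments differed. The p-values measure only the spread between these pooled libraries. Each experiment held 1 library of each genotype, so the spread behind these p-values, SDs and SEs includes the genotype difference. With genotype fitted as well, the SE was 0.081 in place of 0.26 for Igfbp2 and 0.0996 in place of 0.22 for Ide. Of the 10 genes, 3 passed the threshold of 0.05, Igf2 and Igfbp2 higher and Igfbp4 lower in experiment 2. Of all genes 23.7% passed, 8.95% higher and 14.7% lower. Both libraries of one experiment lay above both of the other for 2 of the 10 genes in favour of experiment 2 and for 4 in favour of experiment 1, against 30.1% and 37.2% of all genes. Among these 4 is Igf1, for which TCRb-/- in experiment 2 and WT in experiment 1 both stood at 3.05 CPM. The number of all genes called, 3292, was 1406 without TCRb-/- replicate 1, 1823 without TCRb-/- replicate 2 and 1637 without WT replicate 1. The share of the 10 genes, given only as a count, is not far from that background.

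Igfbp2 rose from 41.8 ± 15.9 CPM in experiment 1 to 103 ± 31.0 CPM in experiment 2 (SD, n = 2 each), a log2 difference of 1.29 (SE 0.26, adjusted p 0.0141). Both libraries of experiment 2 lay above both of experiment 1, with differences of 1.22 in TCRb-/- and 1.37 in WT. Igf2 rose from 13.7 ± 2.85 to 30.9 ± 7.49 CPM, a log2 difference of 1.11 (SE 0.19, adjusted p 0.00868), at 1.16 in TCRb-/- and 1.07 in WT. Igfbp4 fell from 67.1 ± 5.54 to 29.7 ± 12.8 CPM, a log2 difference of -1.21 (SE 0.24, adjusted p 0.0133). Its fall was -1.74 in TCRb-/- and -0.69 in WT, and without TCRb-/- replicate 1 its adjusted p was 0.0629. None of the 3 calls held in limma without a mean-variance trend, where adjusted p ran from 0.0522 to 0.0687. Over all alternatives with the 4 libraries, adjusted p ran from 0.00154 to 0.0522 for Igf2, from 0.000426 to 0.0687 for Igfbp2 and from 0.00719 to 0.0650 for Igfbp4.

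Igf1r did not pass the threshold, at 13.3 ± 1.27 CPM in experiment 1 and 9.46 ± 1.05 CPM in experiment 2 (log2 difference -0.45, SE 0.14, adjusted p 0.0530), and passed it with the experiment and genotype fitted together (adjusted p 0.0368), a fit that called 4 of the 10 genes and 24.7% of all. Igf2r had 8.77 ± 0.550 and 6.44 ± 0.826 CPM (-0.40, adjusted p 0.0902), and Igf1 3.28 ± 0.315 and 2.49 ± 0.798 CPM (-0.31, adjusted p 0.301). For Igf2r, the libraries of experiment 2 lay below those of experiment 1. For Igf1 this order could not be told at this depth. TCRb-/- in experiment 2 and WT in experiment 1 both stood at 3.05 CPM, with counting intervals of 2.33 to 3.92 and 2.42 to 3.80 CPM. Insr (-0.21), Igfbp5 (-0.092), Ide (0.12) and Igfbp7 (0.44) overlapped between experiments, with adjusted p-values from 0.184 to 0.718. Ide thus had a difference between experiments of 0.12, with an SE of 0.22, beside its genotype difference of -0.56.

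**Figure D3:**
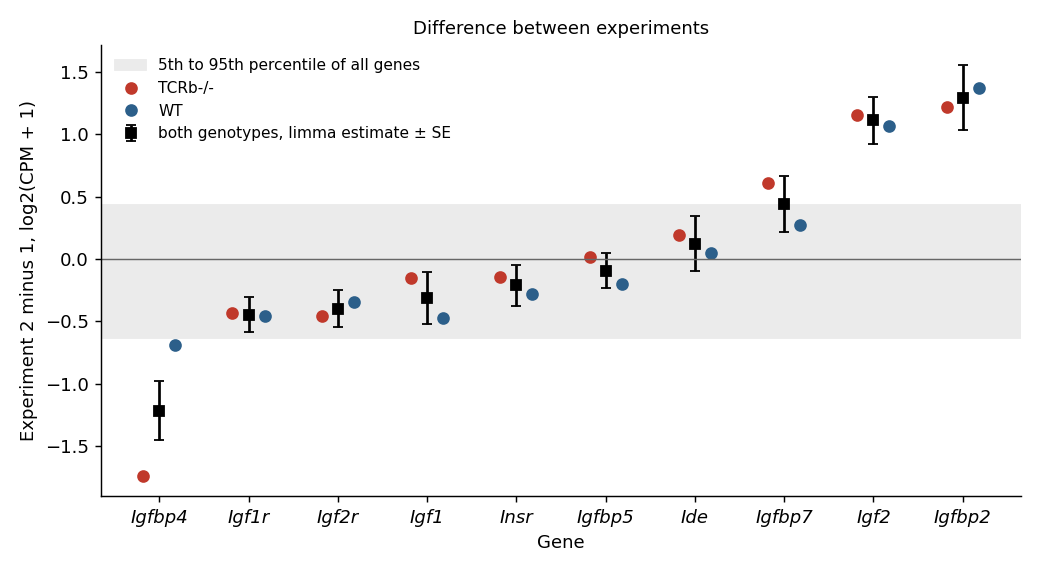
Experiment 2 minus experiment 1 on the log2(CPM + 1) scale for each gene, as the limma estimate ± SE (black squares), in TCRb-/- alone (red) and in WT alone (blue). The grey band holds the middle of all genes, from the 5th percentile (-0.63) to the 95th (0.44). Igf2 (1.11) and Igfbp2 (1.29) lie above it and Igfbp4 (-1.21) below it.

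Markers of neighbouring tissue moved with the genes that differed between experiments. The choroid plexus list (17 of 17 listed, none at 0 in any library), led by Ttr and Enpp2, summed to 1345 CPM in WT and 2199 CPM in TCRb-/- in experiment 1, and to 4271 and 7022 CPM in experiment 2. The order of the libraries was that of Igfbp2 and of Igf2. By genotype, all 17 had the higher value in the TCRb-/- library of each experiment, beside 27% of all genes. Their median log2 difference was 0.58, and the libraries overlapped by genotype for all 17. This median was -0.070 without TCRb-/- replicate 2 and -0.031 without WT replicate 1. It was 1.33 without TCRb-/- replicate 1 and 1.25 without WT replicate 2, so its sign depended on which library was left out. Between experiments, limma called 15 of 17 higher in experiment 2, and 9 without WT replicate 1. Of all genes, 8.95% were called higher in experiment 2. Ttr had 1204 and 4478 CPM in TCRb-/- and 638 and 2591 CPM in WT. The part of choroid plexus tissue in the Igfbp2 and Igf2 values was not tested.

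The genes most like Igf2 by the distance given above were Calml4 (0.077), Cdkn1c (0.097), Kl (0.11), Prlr (0.15) and Lbp (0.16), of which Calml4, Kl and Prlr are on the choroid plexus list. Kl, the anti-ageing protein Klotho of the choroid plexus and kidney, had 23.4 and 54.2 CPM in TCRb-/- and 16.1 and 38.3 CPM in WT. Cdkn1c, a cell-cycle inhibitor encoded in the same imprinted region as Igf2, had 10.2 and 24.8 CPM against 7.97 and 16.3 CPM. Those most like Igfbp2 were Msx1 (0.086), Wdr86 (0.16), Col8a2 (0.21), Enpp2 (0.22) and Col8a1 (0.23), of which Enpp2 is on the choroid plexus list. Msx1, a homeobox factor, had 26.2 and 65.7 CPM in TCRb-/- and 14.4 and 40.3 CPM in WT.

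Other lists moved less or otherwise. Meningeal fibroblast markers (13 of 13 listed, none at 0), led by Slc13a3 and Col1a2, summed to 40.7 and 40.0 CPM in TCRb-/- and 47.7 and 31.0 CPM in WT, and 1 of 12 tested differed between experiments. Astrocyte markers (12 of 12), led by Aldoc and Slc1a3, summed to 2945 and 3007 CPM in TCRb-/- and 2690 and 2786 CPM in WT. Ependymal markers (9 of 9), led by Ccdc153 and Foxj1, summed to 159 and 187 CPM against 119 and 173 CPM. These sums had the library order of the choroid plexus list, and so of Igfbp2 and Igf2, over a narrower range. In both experiments 6 of 8 tested ependymal genes were higher in TCRb-/-, beside 27% of all genes. Between experiments, limma called 5 of 6 tested neuron, 5 of 10 septum, 3 of 12 astrocyte and 2 of 8 ependymal genes. It called 2 of 6 pericyte, 2 of 11 microglia, 1 of 9 oligodendrocyte and 0 of 7 endothelial genes. The share called among all genes was 23.7%. The part of these cells in the IGF values was not tested.

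The striatum list (11 of 11, none at 0), in which Ppp1r1b was the most abundant, moved with Igfbp4. It summed to 3476 and 717 CPM in TCRb-/- and 3092 and 1722 CPM in WT. Beside 14.7% of all genes, limma called 11 of 11 list genes lower in experiment 2. That count was 2 without TCRb-/- replicate 1 and 4 without WT replicate 1. The libraries had the same order in Igfbp4, with TCRb-/- lowest in experiment 2 and highest in experiment 1. All 11 striatum genes were lowest in TCRb-/- in experiment 2. The part of striatal tissue in the Igfbp4 values was not tested.

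**Figure D4:**
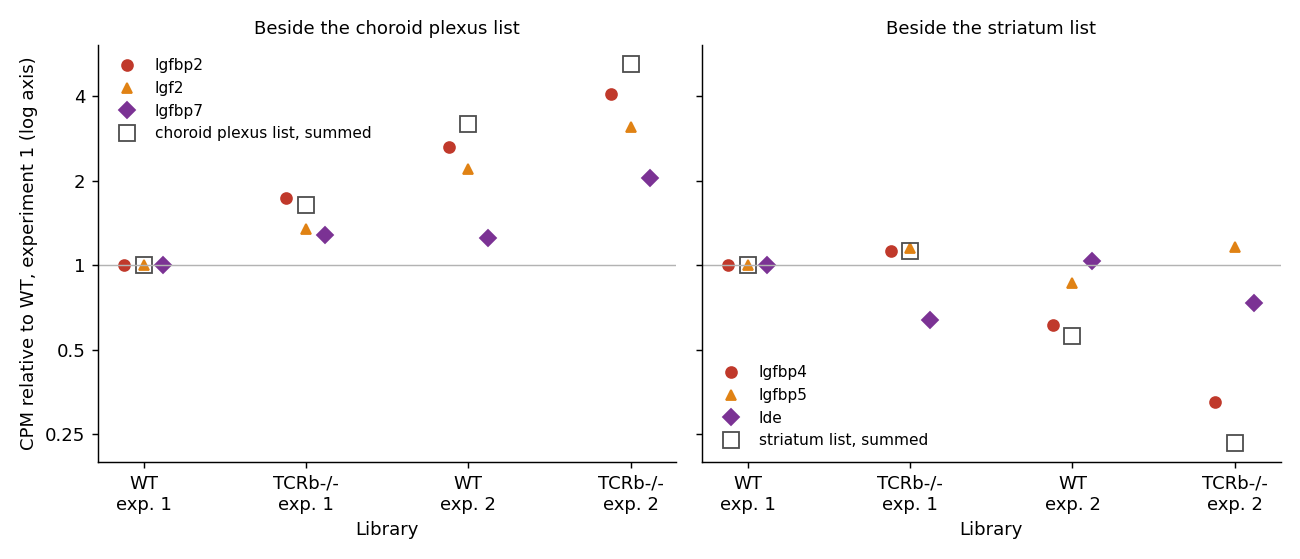
CPM in each library relative to WT in experiment 1, on a log axis, for Igfbp2, Igf2 and Igfbp7 beside the summed choroid plexus list (left), and for Igfbp4, Igfbp5 and Ide beside the summed striatum list (right). In TCRb-/- of experiment 2 the choroid plexus list stood at 5.22, Igfbp2 at 4.08 and Igf2 at 3.10. The striatum list stood there at 0.232 and Igfbp4 at 0.326, while Ide stood at 0.731 and Igfbp5 at 1.16.

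The rest of the pathway was taken from a list of 69 further genes, of which 64 were listed and 59 tested. By genotype, limma called 0 of the 59 with or without the block, with voom weights, and with each library left out. At an unadjusted p under 0.05 there were 0 without the block and 6 with it (10.2%, against 5.64% of all genes). Of the 59, 20 were higher and 15 lower in TCRb-/- in both experiments, with a median log2 difference of -0.017.

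Libraries did not overlap by genotype for 5 higher genes (8.47% of the 59, beside 9.76% of all genes) and for 4 lower ones (6.78% beside 8.04%), shares close to or below the background. The genes below are therefore a description of the list. The highest were Socs3, a feedback inhibitor of cytokine and insulin signalling (3.07 ± 0.377 CPM in TCRb-/- against 2.25 ± 0.544 in WT, SD, n = 2 each), Igfbpl1 (8.70 ± 1.05 against 7.36 ± 0.476) and the insulin receptor substrate Irs1 (1.76 ± 0.130 against 1.46 ± 0.0185). Among the lower were 2 genes of the PI3K and AKT branch. The PI3K subunit Pik3r3 had 15.9 ± 0.0971 against 18.9 ± 2.28 CPM, and the kinase Gsk3b 158 ± 8.08 against 185 ± 25.8. The log2 differences of these 5 genes ran from -0.23 to 0.33, and each had an adjusted p of 1.00 in limma, and between 0.848 and 0.941 with the block.

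Between experiments, 19 of the 59 passed in limma (32.2%, beside 23.7% of all genes), 4 higher and 15 lower in experiment 2, with a median of -0.19 against -0.030 over all genes. Igfbp6, a binding protein with a preference for IGF2, fell from 22.3 ± 2.30 to 9.48 ± 4.56 CPM (log2 difference -1.22, SE 0.26, adjusted p 0.0169). Mme, the amyloid-beta-degrading protease neprilysin, fell from 15.2 ± 2.22 to 6.14 ± 1.89 CPM (-1.20, adjusted p 0.00860). Foxo1, a transcription factor that insulin signalling holds out of the nucleus, fell from 106 ± 8.65 to 57.0 ± 15.4 CPM (-0.90, adjusted p 0.00972). Foxo1, with 112 and 46.1 CPM in TCRb-/- and 99.5 and 67.8 CPM in WT, and Mme, with 16.8 and 4.80 CPM against 13.6 and 7.47 CPM, had the library order of the striatum list (3476 and 717 CPM against 3092 and 1722 CPM). Igfbp6 was lowest in TCRb-/- of experiment 2 as well, with 20.7 and 6.25 CPM against 24.0 and 12.7 CPM. The part of striatal tissue in these values was not tested. Tsc1, a brake on mTOR, had a difference of -0.61 (adjusted p 0.0113), and Akt2, the AKT kinase of insulin-stimulated glucose uptake, of -0.54 (0.00903). Akt2, with 87.8 and 53.3 CPM in TCRb-/- and 75.6 and 58.2 CPM in WT, had the library order of the striatum list too. The part of striatal tissue in the Akt2 values was not tested. Of the M16 peptidase family, to which Ide belongs, 6 other genes were tested. Uqcrc1 and Uqcrc2, core subunits of respiratory complex III, were higher in experiment 2 (log2 differences 0.52 and 0.24), and Nrd1, the protease nardilysin, was lower (-0.24, adjusted p 0.0430, and 0.0537 with the block). The count of 19 pathway genes fell to 8 without TCRb-/- replicate 1, to 12 without TCRb-/- replicate 2 and to 12 without WT replicate 1.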

How the data were processed

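Per the labels' protocols, RNA of 4 pooled septal tissue lysates was made into libraries with a SMARTer kit for low input and read on a HiSeq. The submitters' processing notes name HISAT2 2.1.0, SAMtools 1.3, HTSeq 0.9.1, R 4.0.5, limma 3.46.0 and mm10. Of the annotation, strand setting and row filter nothing is said in the sources used. The deposited values are log2 CPM, with 0.5 added to the reads and 1 to the library total, as worked out from the values. All values gave whole reads within 0.001 reads (100% of them). The 17 ERCC spike-in rows were left out.

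Reads were scaled to CPM of the library total and taken as log2(CPM + 1). Genes averaging 1 CPM or more were fitted in limma 3.58.1 (R 4.3.3; trend, two-sided, Benjamini-Hochberg, threshold 0.05), with 1 term, genotype or experiment. The code of the genotype fit was tested on simulated reads that held no difference between experiments. The fit between experiments was not tested in this way. Intervals are exact Clopper-Pearson intervals at 95% and, like floors of 3 reads, cover counting error only. Exon lengths are from GENCODE M21.

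The labels pair libraries by experiment. Deviations from the genotype mean correlated at 0.719 within experiments across genes. As alternatives, the pseudocount was set to 0.1 or 5, the filter to 10 CPM or none, and the scaling to median of ratios or quantiles. Further fits had no trend, voom weights or the block, or left out a library. Counts for the choroid plexus and striatum lists with a library left out or with the block, and the septum sum without Meis2, were chosen after seeing the data.

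The 10 genes, the pathway list and the marker lists were chosen with earlier results of these data known. The rule named the 10 genes, the 5 genes most like Ide, Igfbp2 and Igf2, and the top 2 of each marker list. Of the pathway list it named the 5 largest differences among called genes, and the 3 highest and 3 lowest among genes without overlap by genotype. Of the genes so named, 2 are not reported here. Igfbp4 as the sign change, M16 proteases, Ins2 and the septum markers were named after their values were seen. Neuron, microglia and oligodendrocyte lists were examined too, and their median log2 differences by genotype were -0.063, 0.035 and 0.080. Tables and plots were made in Python 3.11.15 (scipy 1.17.1, pandas 2.3.3, numpy 2.4.6, matplotlib 3.10.9).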

Additional observations from a re-analysis of the deposited data

Results flagged for a closer look

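The genotype difference of Igfbp4 had opposite signs in the experiments, 0.17 in experiment 1 and -0.88 in experiment 2, so that the second lay below the first by a log2 difference of -1.04. With 1 library of each genotype in each experiment this difference was not tested, and 48.4% of all genes had opposite signs.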

How the results depend on the processing

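With all 4 libraries, the genotype difference of each of the 10 genes kept its sign in 50 of 50 values under another pseudocount or scaling or as deposited. The difference between experiments kept its sign in 60 of 60 under another pseudocount or scaling or with voom weights. The filters, the trend and the replicate block without weights leave these estimates the same by construction and were not counted for the sign. Over all 96 fits, 91 kept their side of the threshold. The exceptions were Igf2, Igfbp2 and Igfbp4 without a trend, and Igf1r with the replicate block and with the replicate block and voom weights. Genes called by genotype were 0, and 2 with the replicate block, with or without voom weights. Without a trend the counts between experiments were 629 of all genes, 2 pathway genes and 0 of the 10. The cause was not tested.

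With 1 library left out, genotype and experiment overlap by construction, and the lone sample is assumed to vary like the other group. Genotype calls ranged from 0 to 47 (47 without TCRb-/- replicate 1, 1 without TCRb-/- replicate 2), calls between experiments from 1406 to 3390, pathway calls from 8 to 17 and calls among the 10 genes from 2 to 4. Igfbp4, at -1.23, was the only one of the 10 genes among the 47. By genotype, 34 of 40 values kept their sign. Ide ranged from -0.66 to -0.46 and Igfbp5 from 0.20 to 0.41. Igfbp2 ranged from 0.012 (without WT replicate 1) to 1.38. Igf2 was -0.14 without TCRb-/- replicate 2 and -0.095 without WT replicate 1. Igf1r was -0.024 without TCRb-/- replicate 1 and -0.036 without WT replicate 2. Igf2r was 0.055 and Igfbp4 0.51 without TCRb-/- replicate 2. Between experiments, Ide ranged from -0.19 to 0.44 (-0.19 without TCRb-/- replicate 1 and -0.12 without WT replicate 2), and Igfbp5 from -0.30 to 0.12 (0.0048 and 0.12 without the same libraries). Igfbp7 passed the threshold without WT replicate 2 (adjusted p 0.00862 in limma), and Igf1r without TCRb-/- replicate 2 (0.0450).

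Depth limits Igf1 most, at 43 to 86 reads a library. Igf1, Insr, Igf2r and Igfbp7 have means under 10 CPM and no value under the stricter filter.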
